A study of Homo sapiens with 4 samples.

Results

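The insulin-like growth factor-binding proteins (IGFBPs) are 7 secreted proteins, IGFBP1 to IGFBP7, and all 7 genes were found among the 60558 gene identifiers measured in each library. They were chosen by name, as the secreted binding-protein family without the related gene IGFBPL1. A549 and HCC827, both human lung adenocarcinoma (LAD) lines, were transduced with myr-AKT1 or with the vector control. HCC827 is known for an activating EGFR deletion. The myr-AKT1 construct makes an AKT1 kinase with a myristoyl anchor that holds it at the membrane in an active state. RNA was sequenced as 4 libraries, a vector and a myr-AKT1 library of each line. Each condition was sequenced once, so within a line there is no replicate check. How many clones or pools of transduced cells the libraries stand for was not given in the sources used here.

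IGFBPs bind the growth factors IGF1 and IGF2 outside the cell, carry them, and release them when proteases cut the binding protein. Bound IGF cannot reach the IGF1 receptor, whose signal runs through IRS adaptors, PI3K and AKT, and several IGFBPs also act on cells without IGF by way of integrins, the matrix or other receptors. Active AKT holds FOXO transcription factors out of the nucleus, and IGFBP1 is a textbook FOXO target that insulin represses in liver.

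Values are normalized counts, which are read counts divided by 1 size factor per library and which compare the libraries of 1 line. The libraries held 16322183 to 33530317 reads. AKT1 itself had a normalized count of 6297 in A549-myr-AKT1 and 4243 in A549-vector, a log2 fold change of 0.57, and in HCC827 of 4805 against 2175, a log2 fold change of 1.14. These reads do not separate the construct from the endogenous gene. The line labels were checked on EGFR, at 814 and 1751 TPM (reads scaled for gene length and library size) in the HCC827 libraries and at 70.9 and 59.5 in A549-myr-AKT1 and A549-vector, and all 6 epithelial markers had more than 3 reads in every library. In bulk RNA, a different share of cells that make a transcript and a different amount per cell cannot be told apart.

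Promoter sequence is shown first for IGFBP2, IGFBP3 and IGFBP4, the members higher with myr-AKT1 in both lines, and for IGFBP5, the member that differed most in A549, with a short stretch for IGFBP6, the member lower with myr-AKT1 in both lines. Of the 7 genes, 5 matched a promoter entry of RefSeq on GRCh38.p14, and IGFBP1 and IGFBP7 did not. The sequences are the 250 bases before the start site of a promoter entry, read 5′ to 3′ on the strand of the gene. Capitals mark GCGTG, the letters of a hypoxia-response core, on either strand. The IGFBP2 and IGFBP3 stretches lie inside the annotated spans of these genes, so other transcripts start further upstream. The IGFBP4 and IGFBP5 stretches lie before the annotated genes. The IGFBP2 stretch is chr2:216633170-216633419 on the plus strand, with GCGTG at -132 to -128 from the start. The IGFBP3 stretch is chr7:45921273-45921522 on the minus strand, with 3 matches. The IGFBP4 stretch is chr17:40443200-40443449 on the plus strand, and the IGFBP5 stretch is chr2:216695550-216695799 on the minus strand.
IGFBP2: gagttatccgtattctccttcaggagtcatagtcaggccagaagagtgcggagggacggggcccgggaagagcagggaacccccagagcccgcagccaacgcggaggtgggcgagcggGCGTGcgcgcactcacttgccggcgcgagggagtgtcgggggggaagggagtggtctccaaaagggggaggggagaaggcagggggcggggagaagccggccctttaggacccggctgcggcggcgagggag
IGFBP3: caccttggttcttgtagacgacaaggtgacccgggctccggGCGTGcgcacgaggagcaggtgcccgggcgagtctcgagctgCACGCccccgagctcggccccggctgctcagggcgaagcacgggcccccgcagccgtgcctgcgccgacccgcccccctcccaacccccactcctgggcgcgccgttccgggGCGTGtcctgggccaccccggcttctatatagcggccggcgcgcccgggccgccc
IGFBP4: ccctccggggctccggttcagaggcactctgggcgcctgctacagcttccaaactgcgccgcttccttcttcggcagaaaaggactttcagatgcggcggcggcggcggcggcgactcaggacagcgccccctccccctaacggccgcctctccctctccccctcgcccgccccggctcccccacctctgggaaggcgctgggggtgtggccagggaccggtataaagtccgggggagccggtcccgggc
IGFBP5: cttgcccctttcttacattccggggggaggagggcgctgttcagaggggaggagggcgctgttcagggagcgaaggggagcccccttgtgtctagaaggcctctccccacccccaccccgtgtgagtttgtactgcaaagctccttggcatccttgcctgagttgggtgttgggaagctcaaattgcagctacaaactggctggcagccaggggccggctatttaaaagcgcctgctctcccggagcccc
In the IGFBP6 stretch, chr12:53097474-53097494 on the plus strand, capitals mark GTAAACA, the letters of the FOXO core, at -186 to -180 from the start. This stretch too lies inside the annotated span of its gene, so another IGFBP6 transcript starts further upstream.
IGFBP6: ttgggaaGTAAACAgaaactg

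The motifs searched on both strands were GTAAACA, the insulin-response letters CAAAACA and TTATTTTG, and the hypoxia-response letters ACGTG and GCGTG, in each promoter entry from 250 bases before the start to 50 after it. GTAAACA was in 3.42% of all 35116 RefSeq promoters, CAAAACA in 4.92%, TTATTTTG in 1.57%, ACGTG in 21.4% and GCGTG in 36.5%. GTAAACA was found at IGFBP6 and GCGTG at IGFBP2 and IGFBP3. None of the 5 motifs was found in the entries of IGFBP4 and IGFBP5. IGFBP1 and IGFBP7 had no promoter entry and were not searched. IGFBP2 has 3 entries, and ACGTG lay at 31 to 35 after another of its starts. A match gives letters only and does not show that a factor binds. GC made up 69.2% of the IGFBP2 stretch, 76.0% of IGFBP3, 71.6% of IGFBP4 and 61.2% of IGFBP5.

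The genes lie at 5 places in the genome (GRCh38, GENCODE 44). IGFBP1 at chr7:45888360-45893660 on the plus strand and IGFBP3 at chr7:45912245-45921874 on the minus strand are 18584 bases apart. IGFBP2 at chr2:216632828-216664436 on the plus strand and IGFBP5 at chr2:216672105-216695549 on the minus strand are 7668 bases apart. IGFBP4 lies at chr17:40443450-40457725 on the plus strand, IGFBP6 at chr12:53097436-53102345 on the plus strand and IGFBP7 at chr4:57030773-57110385 on the minus strand.

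Most IGFBP transcripts were higher with myr-AKT1 in A549, while in HCC827 3 were higher and 2 lower. In A549, 6 of the 7 members were higher in the myr-AKT1 library with a 95% counting interval above 0, beside 27.2% of all 24302 genes with reads in both libraries, and IGFBP6 was lower, beside 29.0%. The log2 fold change of 3 members, IGFBP3, IGFBP5 and IGFBP7, was above 2, beside 6.89% of genes, and that of 0 members was below -2, beside 3.62%. In HCC827, where 5 members had enough reads for a fold, IGFBP2, IGFBP3 and IGFBP4 were higher, beside 27.1% of 22736 genes, and IGFBP1 and IGFBP6 were lower, beside 29.2%. There, 0 members were above 2, beside 6.14% of genes, and 1, IGFBP6, was below -2, beside 3.87%. The members' median log2 fold change was 1.70 in A549 and 1.76 in HCC827, while all genes whose normalized count averaged 50 or more had medians of -0.07 and -0.06. Among such genes, 35.5% lay above and 43.6% below 0 by the counting interval in A549 and 36.0% and 43.0% in HCC827, with 3.76% above 2 and 2.34% below -2 in A549 and 2.7% and 1.86% in HCC827. At a threshold of 1, 5 members were higher in A549, beside 18.2% of genes, and in HCC827 3 were higher, beside 17.5%, and 2 lower, beside 14.1%. Counting intervals cover counting error alone and treat each read as an independent draw. Since reads are not independent molecules and cultures were not repeated, they understate the uncertainty of a fold.

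**Figure D1:**
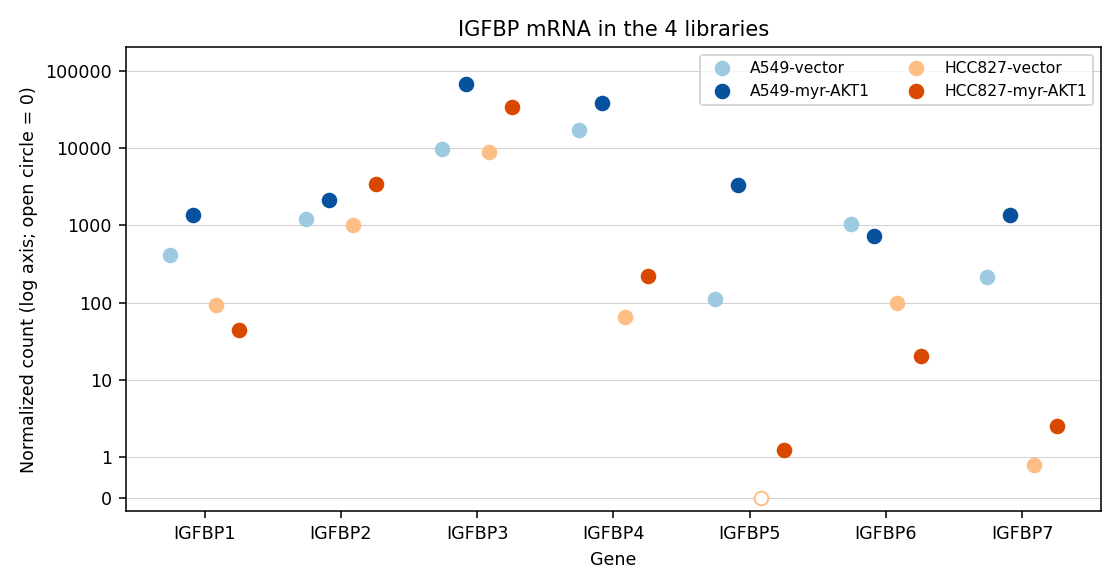
Normalized count (log axis, with 0 drawn as an open circle) of each IGFBP gene in the 4 libraries, 1 point per library. Dark points, myr-AKT1, lie above light points, vector, for IGFBP2, IGFBP3 and IGFBP4 in both lines and below them for IGFBP6. IGFBP5 and IGFBP7 lie near the bottom in HCC827 and between 111 and 3346 in A549. The scale compares libraries within a line.

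IGFBP3, the main IGF carrier of the blood, which holds IGF in a ternary complex with the acid-labile subunit, was the most abundant member in HCC827. Its normalized count was 9562 in A549-vector and 67327 in A549-myr-AKT1. In HCC827 it was 8945 with vector and 34203 with myr-AKT1. On a scale set over all 4 libraries, both myr-AKT1 libraries lay above both vector libraries. The log2 fold change was 2.82 in A549 (95% counting interval 2.79 to 2.85), which is 7.04-fold, and 1.94 in HCC827 (1.90 to 1.97), which is 3.82-fold. That placed IGFBP3 at rank 254 of 13965 genes in A549 and at rank 386 of 13096 in HCC827, counted from the highest.

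IGFBP4, a binding protein that holds IGF back until the protease PAPP-A cuts it, was abundant in A549 and scarce in HCC827. A549-vector had a normalized count of 16883 and A549-myr-AKT1 of 37762. HCC827-vector had 64.4, from 81 reads, and HCC827-myr-AKT1 had 223, from 177 reads. The myr-AKT1 library was the higher one in each line. On a scale set over all 4 libraries, however, both A549 libraries lay far above both HCC827 libraries. The log2 fold change was 1.16 in A549 (1.14 to 1.19) and 1.79 in HCC827 (1.40 to 2.19). The 2.24-fold and 3.46-fold differences are thus on very different levels of transcript.

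IGFBP2, a fetal and tumour-associated member with an integrin-binding RGD motif, was likewise higher with myr-AKT1 in both lines. Its normalized count was 1196 in A549-vector, 2120 in A549-myr-AKT1, 1012 in HCC827-vector and 3418 in HCC827-myr-AKT1. On a scale set over all 4 libraries, the vector libraries were close, with a log2 difference of A549 over HCC827 of -0.17. The myr-AKT1 libraries were further apart, at -1.05. The log2 fold change was 0.83 in A549 (0.72 to 0.93) and 1.76 in HCC827 (1.66 to 1.85).

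IGFBP5 and IGFBP7 were found almost only in A549. IGFBP5, a matrix-bound member known from bone and muscle, had a normalized count of 111 in A549-vector, from 127 reads, and of 3346 in A549-myr-AKT1, from 2922 reads. Its log2 fold change of 4.92 (4.66 to 5.18), or 30.2-fold, ranked 47 of 13965 genes and was the largest of the family. IGFBP7, which binds IGF weakly and is found in vessel walls and basement membrane, had a normalized count of 214 in A549-vector and 1372 in A549-myr-AKT1, a log2 fold change of 2.68 (2.48 to 2.88). In HCC827, IGFBP5 had 0 reads with vector, which allows up to 0.11 CPM (counts scaled for library size alone), and 1 read with myr-AKT1. IGFBP7 had 1 and 2 reads there. No fold is given for these pairs, and a difference between them was not detectable at this depth.

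IGFBP1, a liver and decidua protein that insulin holds down and FOXO factors drive, went in opposite directions. Its normalized count was 417 in A549-vector and 1355 in A549-myr-AKT1, from 477 and 1183 reads. In HCC827 it was 93.0 with vector and 44 with myr-AKT1, from 117 and 35 reads. The myr-AKT1 library was therefore the higher in A549 and the lower in HCC827. The log2 fold change was 1.70 in A549 (1.55 to 1.86) and -1.08 in HCC827 (-1.67 to -0.52), and the intervals do not overlap. IGFBP1 was the 1 member past its counting interval in opposite directions, beside 11.6% of 20298 genes with reads in every library. Without replicates, that contrast of the lines was not tested.

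IGFBP6, the member that prefers IGF2 over IGF1, was the 1 member lower with myr-AKT1 in both lines. Its normalized count was 1044 in A549-vector and 732 in A549-myr-AKT1. In HCC827 it was 98.5 with vector and 20.1 with myr-AKT1, from 124 and 16 reads. Vector was the higher library in each line. The log2 fold change was -0.51 in A549 (-0.65 to -0.37) and -2.29 in HCC827 (-3.14 to -1.53), so the vector library held 1.43-fold and 4.89-fold more. Lower in both lines by the counting interval was true of 18.8% of the same 20298 genes, and higher in both, as for IGFBP2, IGFBP3 and IGFBP4, of 14.4%. Among the 12051 genes that averaged 50 or more in each pair, these shares were 29.5% and 19.4%, with 16.9% in opposite directions.

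**Figure D2:**
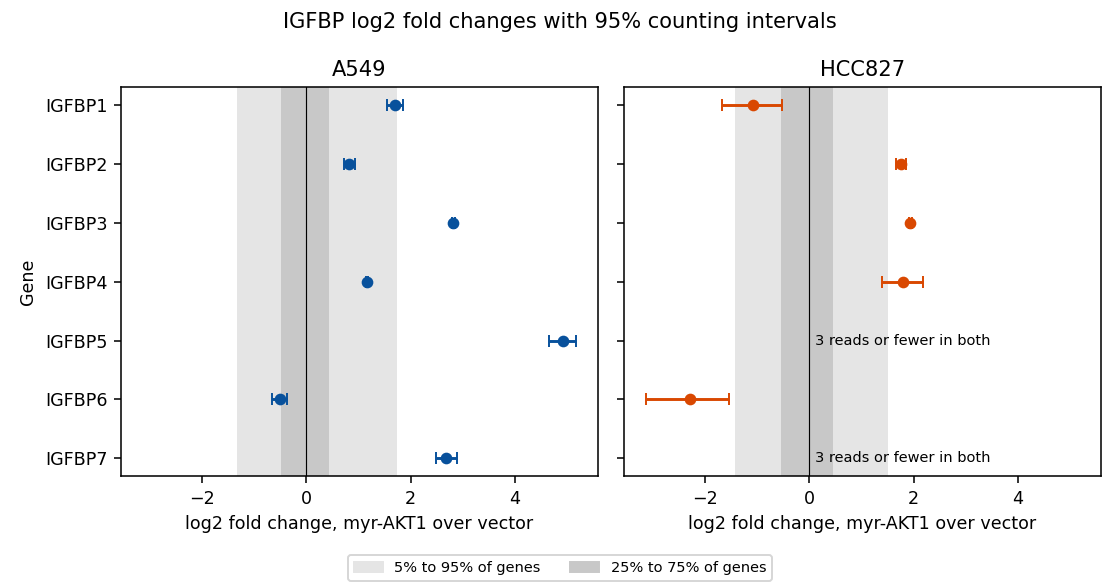
Log2 fold change of each IGFBP gene, myr-AKT1 over vector, in A549 (left) and HCC827 (right). Points are single pairs of libraries and bars their 95% counting intervals, and grey bands hold 25% to 75% and 5% to 95% of the genes whose normalized count averaged 50 or more. In A549, IGFBP3, IGFBP5 and IGFBP7 lie above the outer band, which ends at 1.72, and in HCC827 IGFBP2, IGFBP3 and IGFBP4 lie above it and IGFBP6 below its lower end at -1.41.

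A fit across both lines asked which members differed with myr-AKT1 by more than the lines disagreed. It used limma on log2(normalized count + 1) with the line as a block and left 1 residual degree of freedom. limma shrinks each gene's variance toward a trend over the genes kept, so the p-values depend on those genes as well as on the lines. IGFBP3 rose, with a log2 fold change of 2.38 (SE 0.308, limma adjusted p = 0.0128), and so did IGFBP4, with 1.47 (SE 0.271, limma adjusted p = 0.0342). These 2 of 7 members stand beside 1.29% of all 19314 genes called higher, and 0 members were called lower, beside 1.73%. IGFBP2 had a log2 fold change of 1.29 and a limma adjusted p of 0.0675. IGFBP5 had 3.04 and 0.135, IGFBP7 1.82 and 0.210, IGFBP6 -1.37 and 0.204, and IGFBP1 0.32 and 0.845 by the same limma fit. The values of IGFBP5 and IGFBP7 average A549 with HCC827, where they had at most 2 reads, and the log2(value + 1) scale understates low genes. At an unadjusted p under 0.05 in limma, 5 members were higher, beside 9.17% of genes, and IGFBP6 was lower, beside 9.24%. edgeR's quasi-likelihood test called 2 members higher, IGFBP3 and IGFBP5 (edgeR adjusted p = 0.0202 and 0.00907), beside 1.01% of genes called higher. IGFBP4 had an edgeR adjusted p of 0.0541. DESeq2 called 5, all but IGFBP1 and IGFBP6, beside 4.26% of the 14446 genes it gave an adjusted p. In edgeR and DESeq2, IGFBP5 and IGFBP7 rest on the A549 pair, as HCC827 held at most 2 reads of either. For these members the lines could hardly disagree. The edgeR log2 fold change of IGFBP5 was 4.93, near its 4.92 in A549 alone. Both tools called 0 lower, beside 1.18% of genes in edgeR and 3.57% in DESeq2, and in edgeR the unadjusted p of IGFBP6 was 0.0375. No member's call held in every setting. IGFBP3 missed the threshold in edgeR with size factors over all 4 libraries (edgeR adjusted p = 0.0587), in limma with a pseudocount of 0.1 (limma adjusted p = 0.0852) and in limma without the block, where 0 genes were called. IGFBP4 missed it in these settings too and in edgeR with TMM, and IGFBP5 was called by edgeR and DESeq2 but by limma only when every gene with a read was kept.

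Levels of different members were compared in TPM, which divides reads by the joined exon length of each gene. In A549-vector, IGFBP4 was the most abundant at 968 TPM, followed by IGFBP3 at 264, IGFBP6 at 98.1, IGFBP1 at 32.1, IGFBP2 at 31.9, IGFBP7 at 14 and IGFBP5 at 2.17. IGFBP1 and IGFBP2 did not differ beyond their counting intervals there. In A549-myr-AKT1, IGFBP4 was at 2290 TPM and IGFBP3 at 1970.3, and IGFBP1 at 110 stood above IGFBP7 at 95, IGFBP6 at 72.7, IGFBP5 at 69.2 and IGFBP2 at 59.8. The intervals of IGFBP6 and IGFBP5 overlap. IGFBP5 thus went from well under every other member to the range of IGFBP6.

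HCC827 held a narrower set. In HCC827-vector, IGFBP3 stood at 355 TPM, IGFBP2 at 38.8, IGFBP6 at 13.3, IGFBP1 at 10.3 and IGFBP4 at 5.30. In HCC827-myr-AKT1, IGFBP3 stood at 1420.1 TPM, IGFBP2 at 137, IGFBP4 at 19.2, IGFBP1 at 5.09 and IGFBP6 at 2.84. IGFBP6 and IGFBP1 overlap in both libraries. IGFBP7 and IGFBP5 were at or under 0.247 TPM in both.

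Summed over the family, IGFBP mRNA was 1410.3 TPM in A549-vector and 4667 in A549-myr-AKT1, a ratio of 3.31. In HCC827 the sums were 423 with vector and 1584 with myr-AKT1, a ratio of 3.74. IGFBP3 made up 18.8% of the sum in A549-vector and 42.2% in A549-myr-AKT1, against 84.0% with vector and 89.6% with myr-AKT1 in HCC827. IGFBP4 made up 68.6% and 49.1% in A549-vector and A549-myr-AKT1. Without IGFBP3, the sums were 1146 and 2697 TPM in A549 and 67.7 and 164 TPM in HCC827, again higher with myr-AKT1. The order of some members rests on the length used. With the longest transcript in place of the joined exons, IGFBP3 stood at 2574 TPM and IGFBP4 at 1723 in A549-myr-AKT1. IGFBP7 then stood at 96.7 TPM and IGFBP1 at 85.1 in that library.

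**Figure D3:**
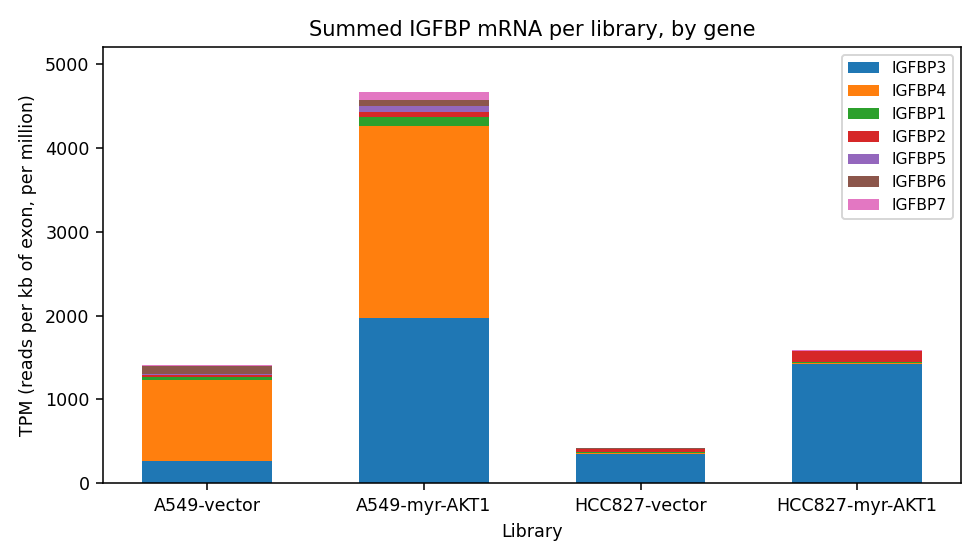
Stacked TPM of the 7 IGFBP genes in each library, 1 bar per library and 1 colour per gene. The A549-myr-AKT1 bar, at 4667 TPM, holds mostly IGFBP4 and IGFBP3, and both HCC827 bars are mostly IGFBP3.

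The lines also differed without myr-AKT1. On a scale set over all 4 libraries, IGFBP4 was 197-fold higher in A549-vector than in HCC827-vector, a log2 difference of 7.62 (7.31 to 7.95). IGFBP6 was 7.95-fold higher and IGFBP1 3.36-fold higher in A549-vector. IGFBP5 was at least 34.9-fold and IGFBP7 at least 67.3-fold higher, taking 3 reads as the floor for the HCC827 library. By counting intervals or floors, 5 of 7 members were thus higher in A549-vector, of which IGFBP1, IGFBP4 and IGFBP6 by the interval, beside 32.4% of 22680 genes. IGFBP2 and IGFBP3 were slightly lower, with log2 differences of -0.17 and -0.32, beside 32.3%. With myr-AKT1, the log2 difference of IGFBP3 was 0.62, with A549 the higher, and that of IGFBP2 was -1.05. IGFBP1 was then 24.0-fold and IGFBP6 28.3-fold higher in A549, and IGFBP5 at least 690-fold. Lines differ in much else, and with 1 library each these values compare libraries.

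Markers of other cells were read beside these values. The summed TPM of 6 fibroblast genes was 10.8 in A549-vector and 46.0 in A549-myr-AKT1, and 2.11 and 9.56 in the matching HCC827 libraries. More than 3 reads were held by 6 of 6 in A549-myr-AKT1 and 5 of 6 in A549-vector. In HCC827, 2 of 6 did so with myr-AKT1 and 4 of 6 with vector. DCN was at 0 in A549-vector and COL3A1 at 0 in HCC827-vector. The A549-myr-AKT1 sum was mostly LUM at 17.4 TPM, ACTA2 at 16.4 and COL1A1 at 11.4. PDGFRB, at 0.086 TPM there and 0.093 in A549-vector, was not higher. The 3 endothelial genes summed to 0.214 and 2.71 TPM in A549-vector and A549-myr-AKT1 and to 1.78 and 3.37 in HCC827. The 4 leukocyte genes, with CD3E at 0 throughout, summed to 0.301 and 7.54 and to 1.48 and 2.57. LYZ alone was 6.13 of the 7.54 TPM in A549-myr-AKT1. These sums moved with the same libraries as IGFBP5 and IGFBP7 in A549, and their part in the result was not tested. The 3 genes taken as A549 markers were read beside the low IGFBP4 level of HCC827, each as a share of its CPM in the matching A549 library. ALDH1A1 stood at 0.0291% with vector and 0.102% with myr-AKT1, AKR1C1 at 0.122% and 11.2%, and AKR1B10 at 1.67% and 16.2%, while IGFBP4 stood at 0.514% and 0.828%. IGFBP4 thus lay between these markers with vector and above ALDH1A1 alone with myr-AKT1. Summed over the 3 markers, HCC827-vector held 76.4 TPM and HCC827-myr-AKT1 held 758, against 13679 and 21160 in A549, and their part in the IGFBP4 difference was not tested.

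Genes next to a member did not share 1 direction. Near IGFBP4, TNS4, a focal-adhesion protein gene 18.1 kb away, had log2 fold changes of 1.88 in A549 and 2.75 in HCC827. TOP2A, the topoisomerase of dividing cells, lies 25.6 kb away and had -3.01 and -2.01. POLR2B, an RNA polymerase II subunit gene, overlaps IGFBP7 on the opposite strand and had 3963 and 6647 reads in A549-myr-AKT1 and A549-vector and log2 fold changes of -0.36 and -0.34 in the lines. It had 2057 and 4114 reads in HCC827, where IGFBP7 had 2 and 1. Whether the counting used strand was not given in the sources used here.

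The genes closest to each member over the 4 libraries were found by the distance between centred log2 CPM values, among 12026 genes. MYO15B, a myosin-like gene, lay nearest to IGFBP1 at a distance of 0.102, with log2 fold changes of 1.68 in A549 and -0.94 in HCC827, and the lncRNA gene MIR31HG came next at 0.422. TTC21A and JMY lay nearest to IGFBP2 at 0.188 and 0.229. TNXB, a matrix protein gene, and SULT1C2, a sulfotransferase gene, lay nearest to IGFBP3 at 0.410 and 0.415. For IGFBP4 the nearest were CA12, a carbonic anhydrase gene, and CYP24A1, the vitamin D hydroxylase gene, at 1.02 and 1.03, and for IGFBP6 they were NOSTRIN at 0.558 and PDE4D at 0.886. With 4 points per gene, many profiles lie close by.

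The rest of the IGF axis, with FOXO-driven genes and IGF2 mRNA-binding proteins, was read from 8 gene lists of 49 distinct genes, 37 of them in the fit. INSR, IRS2 and HTRA1 each stand in 2 lists and count in both. limma called 2 higher, LRP1 and the FOXO-list gene BCL6, beside 1.29% of all genes, and 0 lower. At an unadjusted p under 0.05 in limma, 12 were higher and 1 lower, beside 9.17% and 9.24%. edgeR called the same genes and DESeq2 added ADAM28 and PIK3IP1, and each called 0 lower. Ligand transcripts were scarce. IGF1 had 55 reads in A549-myr-AKT1 and 0 in A549-vector, at least 24.0-fold more against 3 reads, and 53 and 123 reads in HCC827, a log2 fold change of -0.55 (-1.04 to -0.08). IGF2 had 3 reads in A549-myr-AKT1 and 0 in the other libraries.

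Of the 4 receptor genes, 3 had a fold and all 3 were higher with myr-AKT1 by their counting intervals in both lines, beside 14.4% of all genes and 19.4% of those that averaged 50 or more. The median log2 fold change was 0.19 in A549 and 0.92 in HCC827. IGF1R, the signalling receptor for IGF, had 0.25 and 0.92, and INSR, the insulin receptor, had 0.19 and 1.84. The adaptor genes had medians of 0.53 in A549 and -0.30 in HCC827. Of the 5 with a fold, 4 were higher and 0 lower by the counting interval in A549, beside 27.2% and 29.0% of all genes. In HCC827 2 were higher and 3 lower, beside 27.1% and 29.2%. GRB10, an adaptor that dampens both receptors, had 1.18 and 0.13, and IRS1 had 0.20 and -0.30.

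The proteases that cut IGFBPs, with their inhibitors, formed 8 genes. All 8 were higher in A549-myr-AKT1 by the counting interval, beside 27.2% of all genes, with a median log2 fold change of 1.70. PAPPA2 among them had only 9 and 2 reads in A549-myr-AKT1 and A549-vector. In HCC827, 5 of the 6 with a fold were higher, beside 27.1%, with a median of 0.56. ADAM28, which cleaves IGFBP3, had log2 fold changes of 3.47 and 0.77, and ADAM12, which cleaves IGFBP3 and IGFBP5, had 2.27 and 0.34. STC1, a stanniocalcin that inhibits PAPP-A, had 2.41 and 0.22. PAPPA itself, the IGFBP4 protease, had 39108 and 32244 reads in A549-myr-AKT1 and A549-vector, a log2 fold change of 0.67, and 2 and 3 reads in HCC827. The line with abundant IGFBP4 was thus also the line with abundant PAPPA.

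Among 4 partner genes, LRP1, an endocytic receptor that binds IGFBP3, rose, with 6122 and 1658 reads in A549-myr-AKT1 and A549-vector and 2914 and 602 in HCC827. Its log2 fold change was 2.28 in A549, 2.94 in HCC827 and 2.61 across both lines (limma adjusted p = 0.00733). CAV1, caveolin-1, had -0.02 in A549 and -2.99 in HCC827, and TMEM219, a proposed IGFBP3 receptor, had 0.62 and 0.28. The partners' medians were 0.75 and 1.47. Both rest in part on IGFALS, with 7 and 5 reads in A549-myr-AKT1 and A549-vector and 4 and 1 in HCC827. With a pseudocount of 1 they were 0.68 and 1.01.

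The 13 other genes with an IGFBP domain had members in each direction. In A549, 7 were higher and 2 lower by the counting interval out of 10 with a fold, beside 27.2% and 29.0% of all genes, with a median log2 fold change of 0.76. In HCC827 2 were higher and 2 lower out of 7, shares close to the 27.1% and 29.2% of all genes, with a median of 0.95. CCN4, a matricellular WNT target, had 79 and 5 reads in A549-myr-AKT1 and A549-vector, a log2 fold change of 4.37 (3.09 to 6.03), and 0 in HCC827. CCN5 had 1.68 and 1.84 and KAZALD1 0.72 and 2.05 in A549 and HCC827. CCN3 had 1.59 in A549 and -1.28 in HCC827. IGFBPL1, the relative left out of the family, had 194 and 385 reads in A549, a log2 fold change of -0.60 (-0.85 to -0.35).

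The 3 IGF2 mRNA-binding protein genes, which share a name with the family but bind RNA in the cytoplasm, had medians of -0.23 in A549 and 0.05 in HCC827. By the counting interval, all 3 were lower in A549, beside 29.0% of all genes. In HCC827 1 was higher and 1 lower, beside 27.1% and 29.2%. Of the 12 FOXO-driven genes other than IGFBP1, 11 had a fold in A549, where 8 were higher and 1 lower by the counting interval, beside 27.2% and 29.0% of all genes. In HCC827 10 had a fold, with 5 higher and 2 lower, beside 27.1% and 29.2%. The medians were 0.88 and 0.24. BCL6, a transcriptional repressor, rose, with 1.40 and 2.63 in the lines and 2.01 across them (limma adjusted p = 0.0273). PIK3IP1, an inhibitor of PI3K, had 1.70 and 3.83 (limma adjusted p = 0.0743), and PCK1, the gluconeogenic enzyme gene, had 965 and 8 reads in A549, a log2 fold change of 7.31 (6.32 to 8.52), and 0 in HCC827. CITED2 had 0.88 and -0.78, opposite in the lines as IGFBP1 was. Opposite directions by the counting interval were held by 11.6% of genes with reads in every library. Among those that averaged 50 or more in each pair, the share was 16.9%. IRS1 and CCN3, from other lists, were also opposite in the lines by the counting interval.

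**Figure D4:**
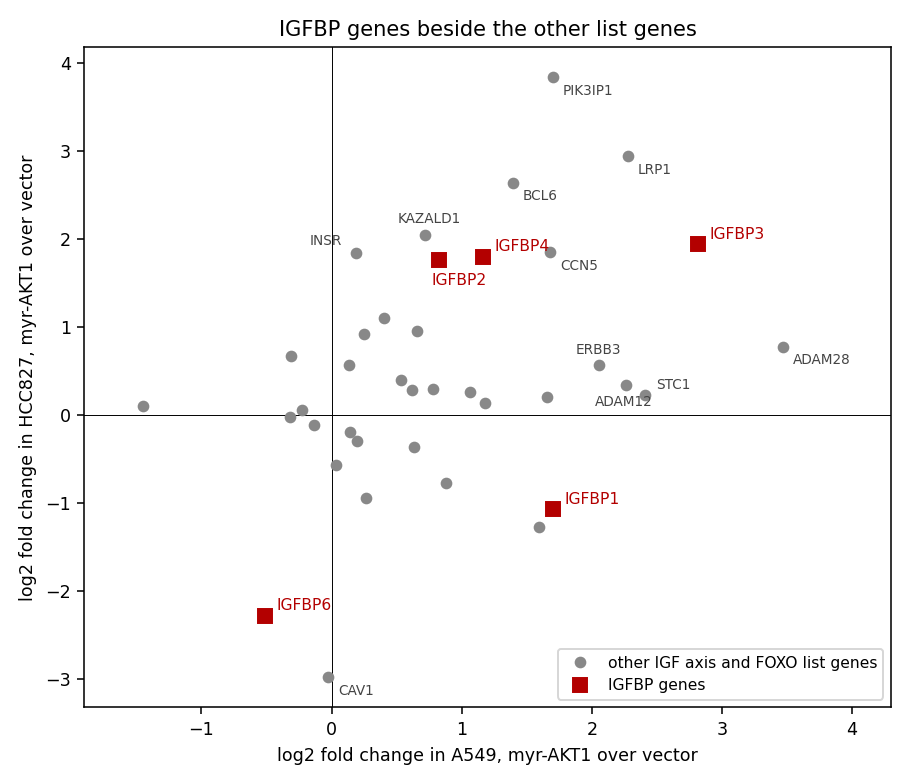
Log2 fold change, myr-AKT1 over vector, in A549 (x axis) against HCC827 (y axis) for 5 IGFBP genes (red squares) and 33 other genes of the lists (grey circles) with at least 20 reads in each pair. IGFBP2, IGFBP3 and IGFBP4 lie in the upper right, IGFBP6 in the lower left and IGFBP1 in the lower right.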

How the data were processed

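RNA from 4 libraries, 1 per condition, was sequenced by the authors, who trimmed and masked the reads, mapped them to hg38 with Bowtie2 and counted genes with HTSeq. The labels describe ribosomal RNA removal and the paper poly(A) selection. The paper names RPKM, but the deposited signal of a gene is its number of reads scaled by a size factor of the library (0.795 to 1.26), set within a line. Whole reads were recovered (tolerance 0.001) for all genes but 1 in each vector library. Of 60558 identifiers, 60261 matched GENCODE 44, which gave names, positions and exon lengths for TPM.

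Log2 fold changes within a line carry 95% Clopper-Pearson counting intervals, with a floor of 3 reads. Intervals and floors cover counting error only. limma 3.58.1 was run on log2(value + 1) with a mean trend, the line as a block and genes kept by edgeR's filterByExpr, with Benjamini-Hochberg adjustment. edgeR 4.0.16 (quasi-likelihood, TMM) and DESeq2 1.42.0 on the recovered reads, other scalings, filters, pseudocounts, a threshold of 1 and no block were alternatives, in R 4.3.3 and Python 3.11.15. The scripts were tested on simulated data. p-values rest on the disagreement between 2 lines and not between cultures, and each gene's variance was shrunk toward that of other genes. Levels between lines used size factors over all 4 libraries.

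Members and gene lists were chosen with earlier results of these data known. Named genes were the members, up to 4 genes per list by absolute log2 fold change among those with at least 20 reads in a pair and an interval clear of 0, the 2 genes nearest to a member in profile, and genes overlapping a member or within 100 kb of it. Not all are given, and IGF2, PAPPA, IGFBPL1 and CITED2 were named after their values were seen.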

Additional observations from a re-analysis of the deposited data

Results flagged for a closer look

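IGFBP1 moved in opposite directions in the lines: its log2 fold change, myr-AKT1 over vector, was 1.70 in A549 and -1.08 in HCC827. This contrast of the lines was not tested, since each condition has 1 library.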

How the results depend on the processing

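Over TMM, total counts, size factors from all 4 libraries and a pseudocount of 1, the 12 within-line log2 fold changes of the members kept their direction in all 48 recomputed values and moved by at most 0.10. With all-library size factors every A549 value was higher by 0.10, and the members' median there became 1.80. At a log2 threshold of 1, 5 members passed upward in A549 and 3 in HCC827, and 2 passed downward in HCC827. With total counts, 1 member, IGFBP3, passed 2 in HCC827. Of the line differences, IGFBP3 reversed to 0.62 in the myr-AKT1 libraries, leaving 1 member lower in A549. With the longest transcript as length, IGFBP3 made up 55.4% of family TPM with myr-AKT1 and 28.2% with vector in A549, and 93.4% and 89.5% in HCC827.

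In the fit across lines, DESeq2 called 5 members higher, with 616 genes higher and 516 lower. edgeR with all-library size factors called 1, IGFBP5, with 59 genes higher and 78 lower. A mean of at least 50 left 131 genes higher. With any gene that had a read, 4 members were higher and 1, IGFBP6, lower, with 1101 genes higher and 894 lower. IGFBP3 there kept its log2 fold change of 2.38, but its limma adjusted p went to 1.17e-20. With a pseudocount of 0.1, limma called 0 members and 0 genes, although 1558 genes higher and 1626 lower passed an unadjusted p of 0.05. The line is the only block the labels allow, as they give no replicate numbers. With no replicate block, limma called 0 members and 0 genes, with 201 higher and 430 lower at an unadjusted p of 0.05. The causes were not tested. None of the 56 refitted member values reversed. Depth limits IGFBP5 and IGFBP7 in HCC827, so their calls in edgeR and DESeq2 rest on the A549 pair.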
